A study of Mus musculus with 4 samples.

Results

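Cytosolic ribosomal protein genes encode the proteins of the large (Rpl) and small (Rps) subunits of the ribosome outside the mitochondria. They were taken as every gene whose symbol starts with Rpl or Rps and a digit, with Rplp0, Rplp1, Rplp2 and Rpsa. The pattern matched 101 of 21660 named genes. It lost 10 Rps6k kinase genes, 3 pseudogenes and 2 low genes ending in l, Rpl3l and Rpl10l, which left 86. Of these, 77 encode subunits of the standard ribosome: 43 of the large subunit, 31 of the small subunit and the 3 P-stalk proteins. Another 5 are paralogs of a standard subunit (Rpl22l1, Rpl36al, Rpl39l, Rpl7l1, Rps27l). The other 4 names are Rps19bp1 and Rps23rg1, which encode other proteins, and Rps27rt and Rps4y2.

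The cells were N2A, a mouse neuroblastoma line, and the study compared depletion of 2 splicing regulators, the polypyrimidine tract binding proteins Ptbp1 and Ptbp2. All cells were transfected with Lipofectamine for 5 hours and grown for 3 days. The control group received the shRNA transfection control, and the other groups the Ptbp1 knockdown, the Ptbp2 knockdown or both. Poly(A) RNA was sequenced strand-specifically as 100-base paired reads, with 1 library per group, so differences between groups have no replicate check and no test across samples was made. All 3 knockdowns are set against the same control library.

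The ribosomal protein genes are among the most highly expressed genes of any growing cell, and most of their products are needed in equal numbers. Many of their messages begin with a run of pyrimidines at the cap, the TOP motif, through which growth signals set their translation. Several control their own level through splicing: excess protein favours an isoform with an early stop codon, which nonsense-mediated decay removes. Ptbp1 and Ptbp2 bind pyrimidine-rich RNA and often repress exons beside it.

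The splicing data turned on 5 of these genes, and their sequences are shown first. They come from GENCODE vM21 transcripts on GRCm38, a later build than that of the reads. Rps24 encodes a small-subunit protein and has a pair of very short exons near its end. Each is shown in capitals with 60 intronic bases before it and 12 after it.
Rps24 18-nucleotide exon, chr14:24493992-24494081, plus strand: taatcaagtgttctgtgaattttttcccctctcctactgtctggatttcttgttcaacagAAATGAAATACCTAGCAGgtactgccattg
Rps24 20-nucleotide exon, chr14:24495370-24495461, plus strand: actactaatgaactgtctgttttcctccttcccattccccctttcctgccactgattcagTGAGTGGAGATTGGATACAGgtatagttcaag
The 60 bases before the 18-nucleotide exon were 66.7% C or T, against 73.3% before the 20-nucleotide exon.

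Each of the other 4 genes has an insert that GENCODE places in a transcript classed as subject to nonsense-mediated decay. In 3 of them an in-frame stop, in capitals, lies inside the insert, and these are shown as the 30 bases around it. Rpl10a, a large-subunit protein, has a 233-base extension of an exon at its 5′ splice site, whose TAA at base 14 makes the stop codon 59 in place of 218. Rpl3, beside the peptidyl transferase centre, has a 180-base extension at a 3′ splice site, whose TGA at base 176 makes the stop codon 181 in place of 404. Rps9, of the small subunit, has a 174-base exon whose TGA at base 11 makes the stop codon 140 in place of 195. Rpl22l1, the paralog of Rpl22, has a 67-base extension at a 3′ splice site. It holds no in-frame stop, shifts the frame and brings the stop forward to codon 65 in place of 123.
Rpl10a insert, first 30 bases, chr17:28329048-28329077, plus strand: gttggcaccgctcTAAccccacccagccct
Rpl3 insert, last 30 bases, chr15:80081032-80081061, minus strand: ccctcccccaactgtgctctgctccTGAag
Rps9 insert, first 30 bases, chr7:3706008-3706037, plus strand: cctttggagcTGAcagatgtgagcttaccc
Rpl22l1 insert, whole, chr3:28806670-28806736, plus strand: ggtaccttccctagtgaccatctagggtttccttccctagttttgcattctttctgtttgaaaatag

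Levels are scaled exon reads per 1e6 (CPM), with libraries scaled on the median ratio over genes, and differences are on the log2(CPM + 0.1) scale. The libraries held 190 to 238 M exon reads (M, 1e6). Ptbp1 was at 637 CPM in control, against 190 in its own knockdown, 730 (Ptbp2 knockdown) and 144 (double knockdown). Ptbp2 was at 96.3, 194, 25.2 and 41.4 CPM in the same order, so it was higher than in control when Ptbp1 alone was depleted. Of 17 noradrenergic neuroblastoma markers 13 were measured, with a sum of 2095 to 2387 CPM over the libraries. Within the list single genes moved in opposite directions: past 0.5 there were 4 higher and 1 lower in the Ptbp1 knockdown, 6 and 4 with Ptbp2 depleted, and 3 and 1 with both depleted. Dbh, which makes noradrenaline, was at 50.04 CPM in control, against 192 (Ptbp1 knockdown), 18.6 (Ptbp2 knockdown) and 53.2 (double knockdown), and Stmn2, a neuronal microtubule protein, was at 164, 110.1, 109 and 69.9 CPM in the same order. Nefl and Nefm were under 1 CPM. None of the 4 muscle and 4 epithelial markers reached 1 CPM in any library, and the fibroblast, glial and blood lists had 1, 2 and 1 measured genes, each under 7 CPM; their sums ran from 1.68 to 6.95, 4.12 to 6.02 and 3.45 to 4.52 CPM over the libraries. The part of shifts in these markers in the results was not tested.

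Exon reads measured 80 of the 86 genes. Rpl26, Rpl30, Rpl36al, Rps27rt and Rps4y2 had no exon trio in the fixed list of the splicing tables, and Rps23rg1 stayed under 1 CPM in every library. Together the members took 7.59% of all exon reads in control, against 6.95% (Ptbp1 knockdown), 8.94% (Ptbp2 knockdown) and 7.38% (double knockdown). By reads across RefSeq junctions these shares were 10.4%, 9.69%, 12.3% and 10.3%. The Ptbp2 knockdown thus stood above the other 3 libraries by both measures, and the Ptbp1 knockdown was lowest. These shares do not depend on the scaling. In bulk RNA, fewer cells of a kind and less RNA per cell cannot be told apart.

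**Figure D1:**
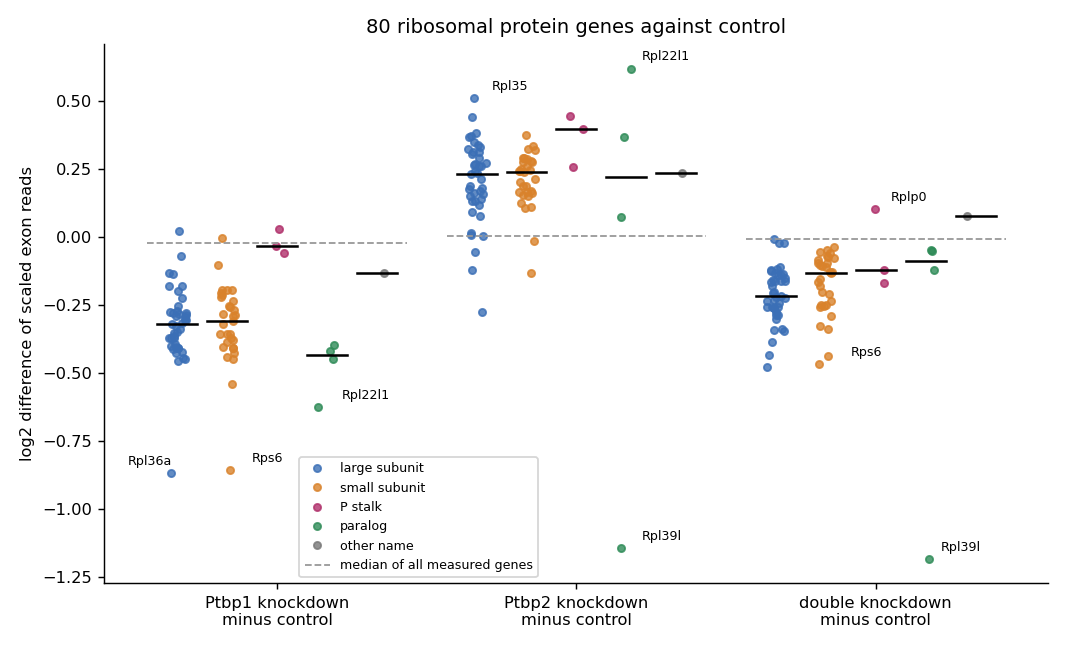
Log2 difference of scaled exon reads from control (vertical axis) for the 80 measured genes in each knockdown, coloured by role; black bars are medians over genes and dashed lines the median of all 10868 measured genes. Most points lie below the dashed line in the Ptbp1 and double knockdowns and above it in the Ptbp2 knockdown.

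Nearly every ribosomal protein gene was lower in the Ptbp1 knockdown than in control. Their median difference was -0.32, a 1.25-fold lower level, and 78 of 80 lay below control and 2 above, while 52.6% of all 10868 measured genes lay below and 47.4% above. The median of all measured genes was -0.02, and their spread (SD between genes 0.46) was wider than that of the members (0.15). Other genes at 200 CPM or more in control, a level that 74 members reached, had an SD of 0.25. Scaled on total reads, which moves the median of all genes to 0.16, the members' median was -0.13 with 68 of 80 below control. Total reads raise the median of all genes by 0.19 (Ptbp1 knockdown), 0.033 (Ptbp2 knockdown) and 0.13 (double knockdown), so values near 0 below are to be read relative to the median of all genes. Relative to that median the members' difference was -0.29 under either scaling. A level of 0.5 lower (1.41-fold) was reached by 4 members, beside 6.84% of all genes. None was 0.5 higher, beside 13% of all genes. Of the other genes at 200 CPM or more, 14.4% were at least 0.5 lower and 0.199% at least 0.5 higher. A difference of 0.25 downward was reached by 59 members, beside 24.7% of all genes, and one of 0.25 upward by 0, beside 25.4%. Most members thus lay a little below control, and 4 lay farther below.

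The members shared the shift in the Ptbp1 knockdown with other abundant genes. The 1004 genes outside the members at 200 CPM or more in control had a median of -0.28 there, close to the -0.31 of the 74 members at that level. In the double knockdown the medians were -0.18 for the other abundant genes and -0.17 for the members. In the Ptbp2 knockdown they parted: the other abundant genes had a median of -0.07 and the members 0.24. Of the other abundant genes 0.0996% were at least 0.5 higher and 6.97% at least 0.5 lower there. In the double knockdown these shares were 0.0996% and 11.1%. The part of the expression level in these differences was not tested.

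**Figure D2:**
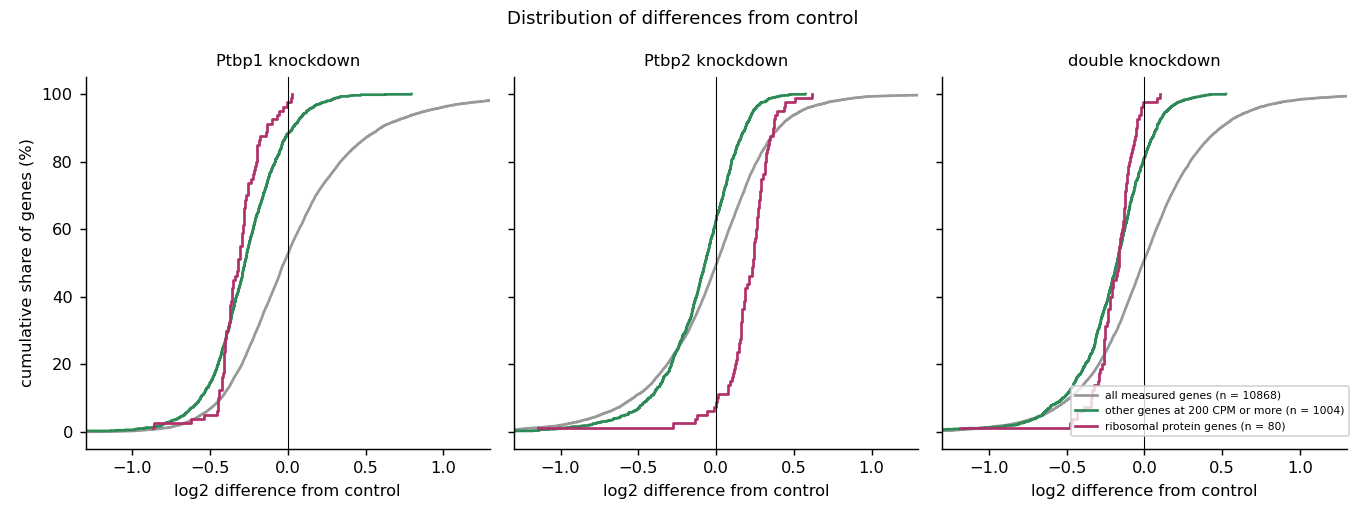
Cumulative share of genes (vertical axis, percent) by log2 difference from control (horizontal axis) for all measured genes, for other genes at 200 CPM or more in control and for the ribosomal protein genes, in each knockdown. The members' curve runs beside that of other abundant genes in the Ptbp1 and double knockdowns and to the right of both curves in the Ptbp2 knockdown.

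Genes of the large and small subunits had like medians in the Ptbp1 knockdown, and the 3 genes of the P stalk lay near the median of all genes. Large-subunit genes had a median of -0.32 (41 measured) and small-subunit genes -0.31 (31 measured). The 3 stalk genes, whose proteins form the flexible arm that recruits elongation factors, had differences of -0.06 (Rplp0), -0.03 (Rplp1) and 0.03 (Rplp2). Rplp2 was at 522 CPM in control, against 533 (Ptbp1 knockdown), 709 (Ptbp2 knockdown) and 479 (double knockdown). Its level with Ptbp1 depleted was thus close to that of control while most members were lower (by total reads it lay above control, with the shift given above). Rpl41, which encodes a very short peptide of the large subunit, and Rps21 of the small subunit were also near control, with 0.02 and 0.00. Rpl35, at the exit tunnel of the large subunit, completed the 6 highest with -0.07.

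Rpl36a and Rps6 stood apart at the low end. Rps6 encodes the small-subunit protein that S6 kinases phosphorylate (mm9, chr4:86500003-86503271, minus strand). It was at 1039 CPM in control, against 573 (Ptbp1 knockdown), 1261 (Ptbp2 knockdown) and 752 (double knockdown). The Ptbp1 knockdown was lowest and the double knockdown second lowest. The differences from control were -0.86, 0.28 and -0.47. All 5 of its measured exons were lower in the Ptbp1 knockdown, by differences of -0.93 to -0.63, and its junction reads gave -0.86 (95% counting interval -0.88 to -0.85). Such intervals cover counting error only.

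Rpl36a, a large-subunit protein gene on the X chromosome (mm9, chrX:131120193-131122601, plus strand), followed the same order. Its level was 546 CPM in control, against 299.5 (Ptbp1 knockdown), 659 (Ptbp2 knockdown) and 432 (double knockdown), with differences of -0.87, 0.27 and -0.34. Its 5 measured exons differed by -0.96 to -0.83 in the Ptbp1 knockdown. The lowest 6 there also held the paralogs Rpl22l1 (-0.62) and Rps27l (-0.45), the small-subunit gene Rps15a (-0.54) and the large-subunit gene Rpl7 (-0.46). Rps15a and Rpl22l1 missed the 0.5 threshold when total reads were used for scaling, with -0.35 and -0.44.

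In the Ptbp2 knockdown the direction was the opposite. The median difference was 0.24, a 1.18-fold higher level, and 74 of 80 members lay above control and 6 below, beside 50.6% and 49.4% of all genes. Of the members 2 were at least 0.5 higher, beside 6.23% of all genes, and 1 was at least 0.5 lower, beside 11.1%. At the smaller difference of 0.25, 34 members were higher (20.9% of all genes) and 2 lower (24.4%). Large-subunit genes had a median of 0.23, small-subunit genes 0.24 and stalk genes 0.39. The stalk thus stood above both subunits' medians here too. In the double knockdown the stalk median was -0.12, close to the -0.13 of small-subunit genes, beside -0.22 for large-subunit genes.

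Rpl22l1 and Rpl35 passed 0.5 upward. Rpl35 was at 621 CPM in control, against 591 (Ptbp1 knockdown), 884 (Ptbp2 knockdown) and 548 (double knockdown). Only the Ptbp2 library was far from the other 3, with a difference of 0.51 (junction reads 0.53, counting interval 0.51 to 0.54). Next came Rplp2 (0.44), Rpl37 (0.44), Rplp1 (0.39) and Rpl8 (0.38), the last a protein of the large subunit's core. The 6 members below control were Rpl39l, Rpl34 (-0.27), Rps23 (-0.13), Rpl39 (-0.12), Rpl7 (-0.06) and Rps25 (-0.01). Rpl34 and Rps23 are among the lowest standard genes per kilobase in control, with 300.1 and 200.4 CPM per kb. In control 93.8% of the Rps23 reads lay on 1 exon.

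The double knockdown lay nearer to the Ptbp1 knockdown. The median difference from control was -0.17, and 78 of 80 members lay below control and 2 above, beside 51% and 49% of all genes, but only 52 of 80 did when total reads were used for scaling, with a median of -0.033. Relative to the median of all genes it was -0.16 under either scaling. A single member, Rpl39l, was 0.5 lower, beside 9.3% of all genes, and none was 0.5 higher, beside 9.63%. A difference of 0.25 downward was reached by 25 members, beside 23.6% of all genes, and one of 0.25 upward by 0, beside 23.1%. Set directly against the Ptbp1 knockdown, the double knockdown was higher for 62 of 80 members, beside 51.5% of all genes. The median was 0.13 (all genes 0.01). Against the Ptbp2 knockdown the double knockdown was lower for all 80 measured members, beside 49.5% of all genes. The median was -0.40 (all genes 0.00).

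At the low end of the double knockdown were Rpl39l, Rpl34 (-0.48), Rps6 (-0.47), Rps23 (-0.44), Rpl7a (-0.43) and Rpl28 (-0.39). Rplp0, the scaffold of the stalk and a common reference gene, was at 2817 CPM in control, against 2706 (Ptbp1 knockdown), 3364 (Ptbp2 knockdown) and 3019 (double knockdown). With a difference of 0.10 it was the highest member in the double knockdown, followed by Rps19bp1 (0.08), Rpl22 (-0.01), Rpl27a (-0.02), Rpl21 (-0.02) and Rps28 (-0.04). Rplp0 therefore did not track the other members in the Ptbp1 or the double knockdown.

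**Figure D3:**
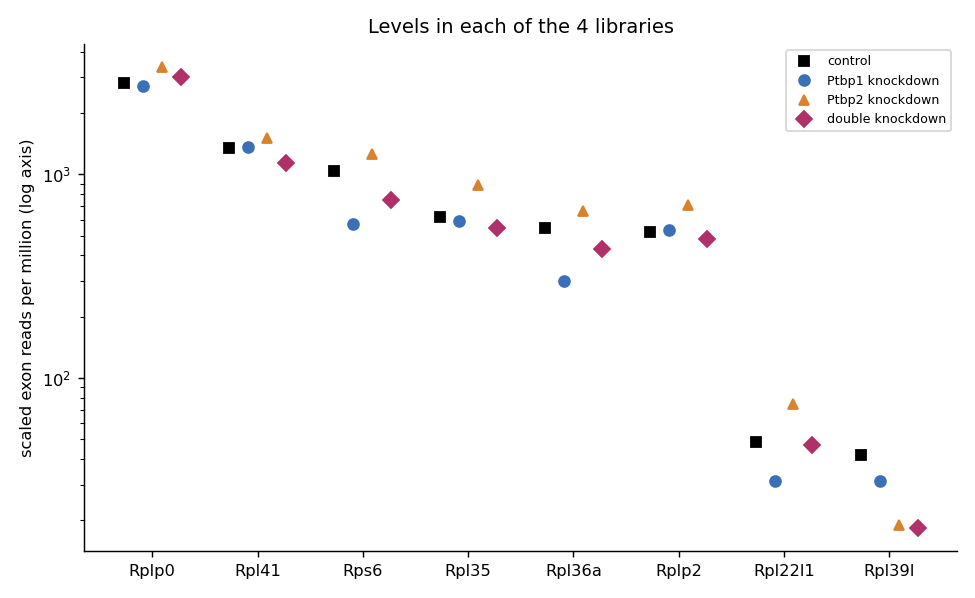
Scaled exon reads per 1e6 (vertical log axis) of 8 members in the 4 libraries, 1 symbol per library. Rps6 and Rpl36a are lowest in the Ptbp1 knockdown, Rpl35 and Rpl22l1 highest in the Ptbp2 knockdown, and Rpl39l lowest in the Ptbp2 and double knockdowns.

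The paralogs differed most from one another. Rpl22l1 was at 48.3 CPM in control, against 31.3 (Ptbp1 knockdown), 74.2 (Ptbp2 knockdown) and 46.7 (double knockdown). It was thus lower with Ptbp1 depleted, higher with Ptbp2 depleted and at the control level with both. The differences were -0.62, 0.62 and -0.05, with junction counting intervals of -0.70 to -0.56, 0.58 to 0.69 and -0.12 to 0.00. Rpl22, which is known to repress Rpl22l1, had -0.32, 0.32 and -0.01, the same signs at smaller size. Per kilobase of measured exon, control held 413 CPM of Rpl22 and 102 of Rpl22l1.

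Rpl39l, the paralog of Rpl39 known from the testis, went its own way. It was at 41.8 CPM in control, against 31.3 (Ptbp1 knockdown), 18.9 (Ptbp2 knockdown) and 18.4 (double knockdown). Both libraries with Ptbp2 depleted were the lowest, with differences of -1.14 and -1.18, a 2.21-fold and a 2.27-fold lower level. All 3 of its exons were at least 1 lower in both. Rpl39 itself differed by -0.28, -0.12 and -0.34. Rps27l, a paralog of Rps27 and a known p53 target, had -0.45, 0.07 and -0.12, beside -0.39, 0.26 and -0.05 for Rps27. Rpl7l1, a nucleolar relative of Rpl7, had -0.40, 0.37 and -0.05, beside -0.46, -0.06 and -0.28 for Rpl7.

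Rpsa, the laminin receptor precursor and a small-subunit protein, was at 1856 CPM in control, against 1620.5 (Ptbp1 knockdown), 1995 (Ptbp2 knockdown) and 1738 (double knockdown). Its differences of -0.20, 0.10 and -0.10 were smaller than the members' medians.

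The standard genes spanned a wide range of level per kilobase of measured exon. The length used was that of all exons counted for a gene, which can differ from its RefSeq transcript. Rpl18, for example, was at 879 CPM and 338 CPM per kb in control, with a RefSeq transcript of 679 bases. The order therefore depends on the exons counted. The highest in control were Rps12 (3585 CPM per kb), Rpl11 (3505), Rps4x (2858), Rpl10 (2701), Rps26 (2614), Rps27a (2596), Rpl41 (2455), Rpl32 (2435), Rpl12 (2145) and Rpl7 (2113). The lowest was Rps15a with 158. Rpl11 binds Mdm2 when ribosome assembly fails, and Rps27a is made as a fusion with ubiquitin. Across the 75 measured standard genes, the difference in the Ptbp1 knockdown had a Spearman rho of -0.24 with transcript length, -0.23 with exon number and -0.23 with level in control. In the Ptbp2 knockdown these were -0.16, -0.21 and -0.30, and in the double knockdown they had the opposite sign, with 0.23, 0.15 and 0.14. The genes share the same libraries, so these are descriptions only.

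Genes of the same process showed the same order in part. Beside the counts below, 52.6% of all genes and 88.2% of the other genes at 200 CPM or more lay below control in the Ptbp1 knockdown, with 6.84% and 14.4% at least 0.5 lower. In the Ptbp2 knockdown 50.6% and 37.3% lay above control, and in the double knockdown 51% and 81.1% lay below it. Rack1, the scaffold on the small subunit, lies outside the symbol rule and had differences of -0.37, 0.22 and -0.16 in the Ptbp1, Ptbp2 and double knockdowns. Fau, which encodes a small-subunit protein as a fusion, had -0.02, 0.28 and -0.28. Of 39 measured ribosome biogenesis genes, 38 were below control in the Ptbp1 knockdown, 6 of them by 0.5 or more, and 32 were above it in the Ptbp2 knockdown. The lowest in the Ptbp1 knockdown were Nop58, a core protein of box C/D snoRNPs (431 to 218 CPM), and Bop1, needed for large-subunit assembly (272 to 145 CPM). The highest there were Rrp1 (0.05) and Sdad1 (0.00). In the Ptbp2 knockdown Tcof1 (0.43) and Gar1 (0.39) were highest and Wdr75 (-0.14) and Nop14 (-0.08) lowest.

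The elongation and TOP list did not follow in the Ptbp2 knockdown. All 19 of its genes lay below control in the Ptbp1 knockdown, 7 of them by 0.5 or more, and in the double knockdown, but in the Ptbp2 knockdown 10 were above and 9 below, with a median of 0.03. Eef2, the translocation factor, had -0.12 in the Ptbp1 knockdown and -0.22 in the Ptbp2 knockdown, and Eef1g, a subunit of the exchange factor, had 0.22 in the latter. Of 26 initiation factors 25 were below control in the Ptbp1 knockdown, and 12 were above and 14 below in the Ptbp2 knockdown. Eif3a (-0.62) and Eif4g3 (-0.59) were lowest and Eif4a2 (0.46) and Eif4ebp1 (0.29) highest there. Of 73 mitochondrial ribosome genes 58 were below control in the Ptbp1 knockdown (median -0.15) and 59 above it in the Ptbp2 knockdown (0.14), which is the direction of the cytosolic genes at smaller size.

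Regulators of growth were mixed. Of 21 genes, 14 were below control in the Ptbp1 knockdown and 12 in the Ptbp2 knockdown. Larp4, an RNA-binding protein of polyadenylated messages, was at 416 CPM in control, against 288 (Ptbp1 knockdown), 278 (Ptbp2 knockdown) and 268 (double knockdown). Mycn was at 21.8 CPM in control and 32.4 in the Ptbp2 knockdown, a difference of 0.57. The 6 measured snoRNA hosts without a ribosomal protein had medians of -0.32, 0.29 and -0.04, and Snhg6 was at 23.8 CPM in control and 43.7 in the Ptbp2 knockdown.

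Promoters were looked at because the genes moved together. RefSeq promoters on GRCm38.p6 were at hand for 65 members, 57 of them standard subunits, each from 250 bases before to 50 after the annotated start. Some are shown from 30 bases before to 20 after the start, with the longest run of C and T within 10 bases of the start in capitals: the 2 lowest members of the Ptbp1 knockdown, 2 that stayed near control, the highest standard member of the Ptbp2 knockdown and the 2 outlying paralogs.
Rps6, chr4:86857348-86857397, minus strand: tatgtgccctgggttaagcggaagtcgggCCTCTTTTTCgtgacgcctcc
Rpl36a, chrX:134585624-134585673, plus strand: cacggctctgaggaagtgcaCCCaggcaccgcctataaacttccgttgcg
Rplp2, chr7:141447621-141447670, plus strand: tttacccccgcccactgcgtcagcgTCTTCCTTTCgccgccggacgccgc
Rpl41, chr10:128549149-128549198, minus strand: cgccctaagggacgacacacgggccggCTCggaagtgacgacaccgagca
Rpl35, chr2:39005112-39005161, minus strand: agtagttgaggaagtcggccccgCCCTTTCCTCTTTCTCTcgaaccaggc
Rpl22l1, chr3:28805478-28805527, plus strand: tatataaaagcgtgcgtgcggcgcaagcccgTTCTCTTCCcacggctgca
Rpl39l, chr16:10170198-10170247, plus strand: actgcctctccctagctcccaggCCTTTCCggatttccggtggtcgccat
A run of at least 7 bases of C or T within 10 bases of the start was present in 22 of 57 standard promoters (38.6%), against 12.2% of 27025 promoters. CCGGAAG on either strand was present in 23 of 57 (40.4%), against 9.12% of all. Rps6 and Rplp2, at opposite ends of the Ptbp1 comparison, both have a run of 10, and Rpl36a and Rpl41 both have a run of 3. The part of these letters in the differences was not tested.

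Most splicing events of the members differed little from control, as did most events of all genes. The tables held 433 measurable events in 80 member genes in the Ptbp1 comparison, of which 92.8% differed from control by under 1 percentage point of inclusion, beside 84.5% of all events. An event was called when the deposited ratio and the inclusion from junction reads both differed by 10 percentage points in the same direction. In the Ptbp1 knockdown 3 member events were called higher, beside 0.635% of 126438 events, and 0 lower, beside 0.474%. In the Ptbp2 knockdown 0 were called higher, beside 0.304%, and 0 lower, beside 0.574%. In the double knockdown 2 were called higher, beside 0.78%, and 0 lower, beside 0.772%. The called member events are few, at shares near or below those of all events, and all of them lie in Rps24.

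The 18-nucleotide exon of Rps24 (mm9, chr14:25313274-25313291), shown above, was included more when Ptbp1 was depleted. Measured against skipping to the 20-nucleotide exon, its inclusion was 6.67% in control (95% Wilson interval 6.08 to 7.30), 21.1% with Ptbp1 depleted (19.8 to 22.3), 4.14% with Ptbp2 depleted (3.71 to 4.62) and 11.1% with both depleted (10.3 to 11.9). The deposited ratios were 5.1%, 16.2%, 3.2% and 8.4%. The order of the libraries was thus Ptbp1 knockdown, double knockdown, control and Ptbp2 knockdown, and no intervals overlapped.

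Measured against the rarer skipping to the last exon, the shift was larger. The inclusion reads cross the junction into the shorter exon and do not show whether the 20-nucleotide exon follows. The values are therefore not inclusion among messages that lack the 20-nucleotide exon. Inclusion against skipping to the last exon was 49.5% in control (45.0 to 54.0), 87.3% with Ptbp1 depleted (84.3 to 89.8), 52.2% with Ptbp2 depleted (46.7 to 57.7) and 81.7% with both depleted (78.0 to 85.0). Control and the Ptbp2 knockdown overlapped. The remaining called event, a 5-nucleotide extension of the exon before, shares these skipping reads, which numbered 238, 71, 152 and 87. Against the far more frequent skipping to the 20-nucleotide exon, that extension was at 0.446%, 1.34%, 0.267% and 0.922%. The 20-nucleotide exon itself was included at 98.9% to 99.6% in every library. A retained 2281-base stretch of Rps24, which spans both short exons, rests on the same skipping reads to the last exon. Its retention was 36.8% in control, against 61.8% (Ptbp1 knockdown), 46.9% (Ptbp2 knockdown) and 57.8% (double knockdown). By junction reads it differed most from control among the members' retained introns in every knockdown. The deposited ratios were 6.5%, 7%, 5.9% and 5.7%, so the event was not called. Total Rps24 was at 774, 567, 859 and 723 CPM.

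**Figure D4:**
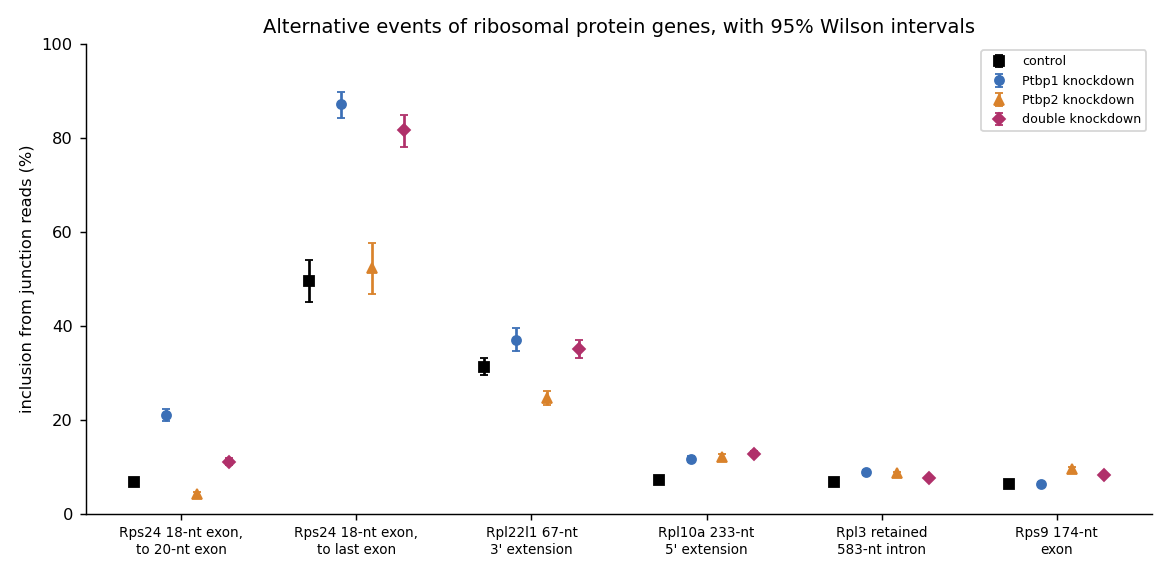
Inclusion from junction reads (vertical axis, percent) of 6 events in the 4 libraries, with 95% Wilson intervals for counting error. The Rps24 18-nucleotide exon is highest in the Ptbp1 knockdown in both settings, and the other events differ from control by under 7 percentage points.

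The inserts of Rpl22l1, Rpl10a and Rps9 moved by smaller amounts and not all alike. No value is given for the Rpl3 extension shown above. The 67-base extension of Rpl22l1 was used at 31.3% in control (29.5 to 33.2), 37.1% with Ptbp1 depleted (34.7 to 39.5), 24.6% with Ptbp2 depleted (23.2 to 26.2) and 35.0% with both depleted (33.2 to 36.9). Its use was lowest where the total level of Rpl22l1 was highest, and highest where that level was lowest. With 4 libraries this is a description.

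The Rpl10a extension was used more in every knockdown, at 7.27% in control (6.83 to 7.73), 11.6% with Ptbp1 depleted (11.0 to 12.3), 12.1% with Ptbp2 depleted (11.6 to 12.7) and 12.8% with both depleted (12.2 to 13.4). The retained 326-base intron that holds it was at 12.4%, 18.3%, 17.4% and 15.8%, from the mean of the reads over both exon and intron boundaries. The 93-base intron that remains after the extension was retained at 61.3% (59.2 to 63.2), 58.0% (56.04 to 59.98), 57.4% (55.8 to 59.0) and 49.8% (48.0 to 51.7), so control was highest there, though the Ptbp1 interval overlapped it. The deposited ratios were 45.9%, 46.3%, 46.3% and 39.2%, with only the double knockdown below control. That difference was 11.4 percentage points by junctions and 6.7 by the ratio, so the event was not called. The retained 583-base intron of Rpl3, a separate event from the extension shown above, was at 6.65% in control. It was at 8.79% (Ptbp1 knockdown), 8.57% (Ptbp2 knockdown) and 7.68% (double knockdown). Control was thus the lowest of the 4 libraries for the Rpl10a extension, for the intron that holds it and for this Rpl3 intron.

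The 174-base exon of Rps9 was at 6.43% in control (6.07 to 6.81) and 6.31% in the Ptbp1 knockdown (5.92 to 6.73), and at 9.47% (9.08 to 9.89) and 8.21% (7.80 to 8.65) in the Ptbp2 and double knockdowns. Both libraries with Ptbp2 depleted were thus above both others. A 41-base exon of Rpl17, whose length is not a multiple of 3, was included at 98.0% in control, against 95.7% (Ptbp1 knockdown), 95.4% (Ptbp2 knockdown) and 96.3% (double knockdown). The retained 95-base intron of Rps27a was at 51.7%, 58.7%, 50.6% and 53.8%. None of these differences reached 10 percentage points. In Rpl12, Rps3, Rps13 and Rps14, whose splicing is known to be regulated in other systems, no inclusion among 20 events differed from control by more than 0.74 percentage points.

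FPKM gave a poorer measure of these genes. FPKM is fragments per kilobase and 1e6 fragments, here rescaled within each library. Of 75 standard genes with exon reads, 16 were under 10 FPKM in control, although their exon reads ran from 111 to 1709 CPM, and 8 were listed at 0 in at least 1 library. Rps7 was at 1128 CPM in control and 1.00 FPKM, and Rps18 at 1295 CPM and 1.74 FPKM. Rpl10 went from 134 FPKM in control to 1.29 in the double knockdown, while its exon reads went from 2293 to 1913 CPM. Other transcripts were assembled at the same loci in the deposited files, and their part in these values was not tested.

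The medians by FPKM still had the signs of the exon reads. They were -0.25 (Ptbp1 knockdown), 0.19 (Ptbp2 knockdown) and -0.07 (double knockdown) on the log2(FPKM + 1) scale. The SD between genes was 1.08, 0.78 and 1.36, beside 0.15, 0.21 and 0.16 by exon reads. Of 79, 75 and 79 members at 1 FPKM or more, 20, 21 and 30 had the opposite sign to their exon reads. For the members without exon reads, FPKM was the sole measure: Rpl36al, the paralog of Rpl36a, was at 68.0 in control, against 83.8 (Ptbp1 knockdown), 100.2 (Ptbp2 knockdown) and 167 (double knockdown). Rpl26 and Rpl30 were under 5 FPKM in every library, and Rps27rt was listed at 0 in all.

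**Figure D5:**
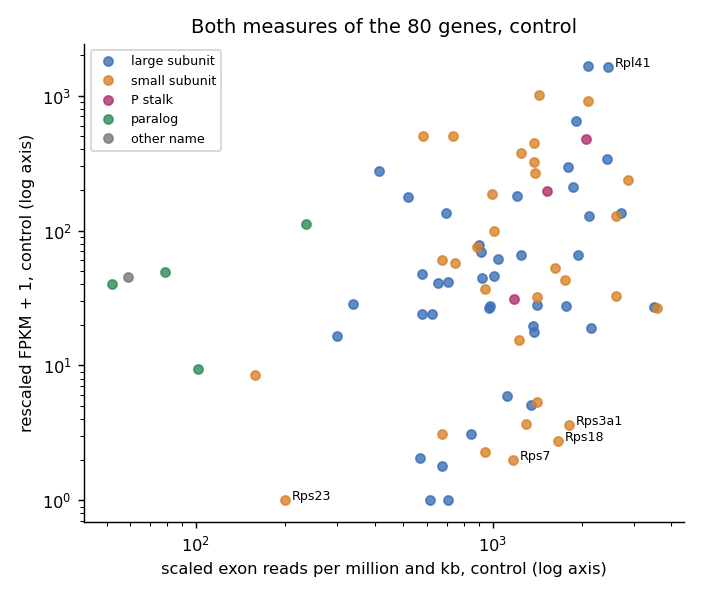
Rescaled FPKM + 1 (vertical log axis) against scaled exon reads per 1e6 and kilobase (horizontal log axis) in control, 1 point per measured gene, coloured by role. Genes with many exon reads spread over the whole FPKM range, and Rps7, Rps18 and Rps3a1 lie near the bottom.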

How the data were processed

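Poly(A) RNA of 4 N2A libraries was analysed. Per the submitters' processing notes, CASAVA, TopHat and Cufflinks were used with mm9; versions, and how reads that map to several places such as processed pseudogenes were counted, are not given in the sources used here. Levels: the deposited Cufflinks FPKM were rescaled so that FPKM weighted by transcript length add up to one total in each library. The deposited transcript files also hold a score and coverage that gave no reported value. The deposited SpliceTrap tables give, per the file headers, an inclusion ratio (a fraction of transcripts), exon coverage (a depth signal, which times the exon size over 100 is a whole number of reads) and junction read counts for 228333 exon trios, of which 95.5% were named through RefSeq introns.

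Reads of non-overlapping exons were summed per gene and scaled by the median ratio to the gene's geometric mean over genes with 20 reads or more in every library. Genes with 1 CPM or more in any library were measured. With 1 library per group no test was run; a gene was counted past a log2 difference of 0.5. Cassette inclusion came from the upstream junction as the tables order it, and retained introns from both boundaries. Alternative sites of 50 bases or more used the junction that spans an intron. Shorter ones, such as the called Rps24 extension, used the larger count of both inclusion junctions. In both libraries 20 informative reads were required. Named genes were the 6 highest and 6 lowest members per comparison at 10 CPM or more in control, the 10 highest per kilobase, paralogs, stalk genes, Rpsa, genes with called or known regulated splicing, and up to 2 at each end of each list. The members, lists and rules were chosen with earlier results of these data known. The scaling was tested on simulated counts with equal numbers of genes raised and lowered and all others unchanged. That simulation does not cover a shift shared by most abundant genes, as in the Ptbp1 knockdown. Python 3 with pandas, numpy and scipy was used. One gene of the lists is not reported here.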

Additional observations from a re-analysis of the deposited data

How the results depend on the processing

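The direction of the members' median was the same under every alternative run: other scalings, junction reads, rescaled FPKM, the deepest exon, exons outside cassettes, a pseudocount of 1, other filters, standard subunits only, and without Rps23, Rpl34 and names that are not ribosomal proteins (the last pair chosen after seeing the data). Scaling on total reads gave -0.13 for the Ptbp1 knockdown and -0.033 for the double knockdown. It left 2 members past 0.5 in the Ptbp1 knockdown, both lower, beside 2.21% of all genes lower and 21.6% higher. At a threshold of 0.25 the counts were 59, 36 (34 higher, 2 lower) and 25 for the Ptbp1, Ptbp2 and double knockdowns. The shares of all genes are given above. At 1 the count was 0 in the Ptbp1 knockdown, beside 3.86% of all genes higher and 0.294% lower. In the Ptbp2 knockdown it was 1 (lower), beside 0.699% and 2.01%. By FPKM they were 22 (4 higher, 18 lower), 30 (18 and 12) and 31 (12 and 19), where 12.6% of all genes were higher and 6.31% lower, 7.42% and 10.0%, and 11.4% and 7.83%. Junction reads gave 2 in the double knockdown, both lower, beside 9.18% of all genes lower and 9.79% higher. With standard subunits only, 1 passed upward in the Ptbp2 knockdown, beside 6.22% of all genes higher and 11.1% lower. In the double knockdown 0 passed, beside 9.64% and 9.30%. By FPKM Rps15a reversed to 0.32 in the Ptbp1 knockdown and Rpl35 to -2.88 in the Ptbp2 knockdown; the cause was not tested.

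Called splicing events numbered 6 (5 higher, 1 lower), 1 (higher) and 4 (2 higher, 2 lower) at a difference of 5 percentage points, where 1.39% of all events were higher and 1.49% lower, 0.973% and 1.80%, and 1.60% and 1.91%. At 20 points they were 1 in the Ptbp1 and 1 in the double knockdown, both higher. Of all events 0.224% and 0.0894%, and 0.338% and 0.196%, were then higher and lower. By the deposited ratio alone they were 8 (6 higher, 2 lower), 4 (3 and 1) and 6 (3 and 3). Of all events 1.04% and 0.773%, 0.649% and 0.929%, and 1.11% and 1.16% were then higher and lower. By junctions alone they were 4 (all higher) in the Ptbp1, 2 (both higher) in the Ptbp2 and 5 (4 higher, 1 lower) in the double knockdown. Of all events 0.89% and 0.776%, 0.534% and 0.893%, and 1.08% and 1.09% were then higher and lower. The mean of both inclusion junctions was added after seeing the data. It gave 2, 1 and 2 in the same order, all higher. Of all events 0.618%, 0.295% and 0.792% were then higher. No paired analysis was possible because each group holds 1 library and no test was run. One library per group leaves differences between libraries and between groups impossible to tell apart.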
